A study of Mus musculus with 8 samples.

Results

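Broad constant acetylated domains were stretches of chromatin at least 5 kb wide that carried peaks of H3K27ac, the acetylated form of lysine 27 of histone H3, in every library of the study. The study profiled the mark by chromatin immunoprecipitation and sequencing (ChIP-seq, antibody Abcam ab4729) in E14tg2a mouse embryonic stem cells of the 129SV background. All cells, controls included, carried a stable cRAF-ErT2 transgene, a RAF kinase joined to a tamoxifen-responsive receptor domain, and were cultured with serum, LIF and 2 uM Chir99021, a GSK3 inhibitor. Serum, LIF and 250 nM PD173074, an FGF receptor inhibitor, made up the medium for the 24 h before treatment. Cells were then left untreated or received 250 nM 4-hydroxytamoxifen (4OHT) for 2 h, used per the labels to switch on ERK by way of the fusion. Clones a and b were profiled in each state, giving 4 libraries. The labels name no vehicle control, and ERK activity was not measured in these data.

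Members were chosen by merging overlapping peaks of the 4 lists into 82792 union regions. All 4 lists had a peak in 30131 of these, and 1220 of the 30131 were 5 kb or wider. A region was left out when its summed peak length differed 1.5-fold or more in the same direction after 4OHT in both clones. This removed 52 regions that were longer after 4OHT and 61 that were shorter, and 1107 domains were kept. Width, presence in all lists and the 4OHT contrast were therefore selected on, and values of these are given as description. Read depth is unknown, because the lists hold peak positions and scores but no read counts.

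H3K27ac is written by the acetyltransferases p300 and CBP and marks active promoters and enhancers. Long clusters of marked enhancers, often called super-enhancers or stretch enhancers, are known in embryonic stem cells for lying at genes of the pluripotency network, such as Pou5f1, Sox2, Esrrb and the miR-290 to miR-295 cluster. ERK signalling promotes exit from the naive state, and inhibition of the FGF receptor upstream of it favours self-renewal.

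The longest domain by mean summed peak length lay at chr7:3198381-3221443 (mm10) and holds the miR-290 to miR-295 hairpins, which encode the main microRNAs of mouse embryonic stem cells. The mature strands below are shown because 5 of the 17 that the reference lists in this domain share a near-identical seed, the stretch that pairs with targets. For miR-292a the reference lists only the 5p strand, so the 17 may be incomplete. Sequences are from RefSeq (GRCm38.p6, the same coordinates as mm10), on the plus strand, and capitals mark the seed, bases 2 to 8.
mmu-miR-291a-3p: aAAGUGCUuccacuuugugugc
mmu-miR-294-3p: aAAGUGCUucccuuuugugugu
mmu-miR-295-3p: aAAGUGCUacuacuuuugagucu
mmu-miR-290a-3p: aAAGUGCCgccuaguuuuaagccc
mmu-miR-291b-3p: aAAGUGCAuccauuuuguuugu

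The first 3 share the seed AAGUGCU, and miR-290a-3p and miR-291b-3p differ from them in the last seed base. The domain begins 20.2 kb before the first hairpin and ends 0.602 kb after the last, so most of it lies upstream of the microRNAs. The domain also overlaps the protein-coding gene Nlrp12. Of 1228 microRNA genes in the gene table, 18 lay inside 10 domains, against 117 inside any region called in all 4 lists.

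The promoters of 5 genes whose starts lie inside long domains are shown next, because they differ in CpG content. Each runs over the 250 bases before the annotated start (RefSeq, GRCm38.p6), read in the direction of transcription, and capitals mark matches on either strand to the motifs listed further on. Pou5f1 lies on chr17:35505782-35506031 (plus strand), Sox2 on chr3:34649745-34649994 (plus), Tet1 on chr10:62887325-62887574 (minus), Eif4a2 on chr16:23107218-23107467 (plus) and H2-M5 on chr17:36989534-36989783 (minus).
Pou5f1: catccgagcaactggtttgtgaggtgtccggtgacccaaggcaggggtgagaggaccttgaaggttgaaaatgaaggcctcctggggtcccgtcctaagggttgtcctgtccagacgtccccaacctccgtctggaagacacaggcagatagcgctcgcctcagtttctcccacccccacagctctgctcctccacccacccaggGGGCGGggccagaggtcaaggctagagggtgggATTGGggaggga
Sox2: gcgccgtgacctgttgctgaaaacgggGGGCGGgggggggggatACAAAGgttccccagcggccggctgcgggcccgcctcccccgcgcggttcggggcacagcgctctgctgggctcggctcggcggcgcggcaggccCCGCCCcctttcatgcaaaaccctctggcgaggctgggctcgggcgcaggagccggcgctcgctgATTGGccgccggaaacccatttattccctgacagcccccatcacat
Tet1: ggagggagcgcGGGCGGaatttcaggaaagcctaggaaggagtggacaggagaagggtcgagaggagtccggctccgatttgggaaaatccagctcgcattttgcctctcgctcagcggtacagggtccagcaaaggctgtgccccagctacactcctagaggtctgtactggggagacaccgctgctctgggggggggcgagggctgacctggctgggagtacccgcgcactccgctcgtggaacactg
Eif4a2: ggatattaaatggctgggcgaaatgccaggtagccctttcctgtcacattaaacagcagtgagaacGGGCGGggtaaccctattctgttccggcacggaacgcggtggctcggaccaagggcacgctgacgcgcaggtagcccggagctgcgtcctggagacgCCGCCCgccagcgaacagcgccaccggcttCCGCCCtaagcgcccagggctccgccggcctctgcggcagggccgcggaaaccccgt
H2-M5: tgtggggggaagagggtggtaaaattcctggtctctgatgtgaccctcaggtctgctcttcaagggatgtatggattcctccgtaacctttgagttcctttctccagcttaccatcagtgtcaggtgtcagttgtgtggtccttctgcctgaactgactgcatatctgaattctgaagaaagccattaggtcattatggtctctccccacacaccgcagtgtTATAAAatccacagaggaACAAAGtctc

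The Sox2 and Eif4a2 stretches each hold 27 CpG dinucleotides and GC boxes. The H2-M5 stretch holds 2 CpG dinucleotides and a TATA box whose first letter is 28 bases before the start. Pou5f1 has a GC box beginning 45 bases and an inverted CCAAT box beginning 12 bases before its start, and 8 CpG dinucleotides. The domains reach well beyond these windows. The Sox2 domain begins 5.04 kb before the start and ends 7.67 kb after it, the Pou5f1 domain spans 7.94 kb before and 4.10 kb after, and the Tet1 domain 17.8 kb before and 4.70 kb after.

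The domains made up a small share of each peak list but a larger share of its covered length. They held 3.92% to 4.65% of the peaks and 13.7% to 14.2% of the covered bases of the 4 libraries, whose lists held 59170 to 63276 peaks over 50.4 to 53.1 Mb. Domain widths ran from 5000 to 23275 bp with a median of 6376 bp (quartiles 5566 and 7959). Of the 1107 domains, 268 were at least 8 kb wide, 130 at least 10 kb, 30 at least 15 kb and 6 at least 20 kb. Regions close to the 5 kb limit lay near Lypd4 (5002 bp) and at Rusc2 (5003 bp) inside it, and at Vps54 and Ndufb4 (4997 bp each) and Tcl1 (4999 bp) outside it.

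Length values below are summed peak lengths and follow the order untreated clone a, untreated clone b, treated clone a, treated clone b. The miR-290 to miR-295 domain measured 23.0, 23.0, 22.6 and 23.0 kb, called as 1 unbroken peak in every library except treated clone a, which had 4 peaks. The domain 28.7 kb from Csnk1a1, over the long non-coding RNA gene Bvht, measured 23.0, 22.6, 23.0 and 22.1 kb. A domain within Etv5, which encodes an ETS transcription factor downstream of FGF and ERK signalling, measured 23.2, 22.0, 22.9 and 21.9 kb. In the Etv5 and Csnk1a1 domains both values of clone a lay above both values of clone b, and the untreated and treated ranges overlapped.

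**Figure D1:**
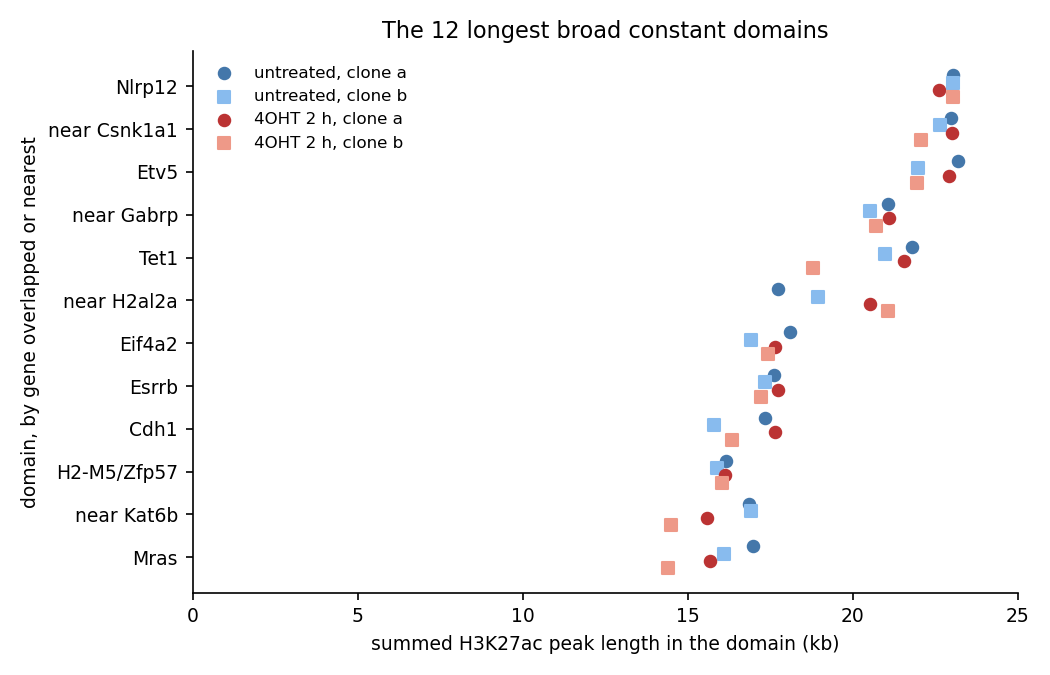
Summed H3K27ac peak length (kb, horizontal axis) of the 12 longest domains in each library, one point per library, blue for untreated and red for 4OHT, circles for clone a and squares for clone b. The domain near H2al2a is longer in both treated libraries and those near Kat6b and at Mras are shorter in both, while the treated and untreated points of the Cdh1, Eif4a2, Esrrb and Etv5 domains overlap.

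Other domains among the 12 longest lay at genes of chromatin, adhesion and translation. Tet1, which encodes an enzyme that oxidises 5-methylcytosine, had a domain of 21.8, 21.0, 21.6 and 18.8 kb. Cdh1, which encodes the adhesion protein E-cadherin, had one of 17.3, 15.8, 17.6 and 16.3 kb, and Eif4a2, a translation initiation helicase, one of 18.1, 16.9, 17.6 and 17.4 kb. The treated and untreated ranges overlapped in the Cdh1 and Eif4a2 domains, and at Tet1 the lowest value was that of treated clone b. A domain over H2-M5 and Zfp57, a zinc finger gene for imprint maintenance, measured 16.16, 15.89, 16.12 and 16.03 kb, the narrowest spread among these. The 12 also held domains 6.76 kb from Gabrp (20.5 to 21.1 kb) and within Mras (14.4 to 17.0 kb), a RAS-family GTPase gene. The domain 3.54 kb from H2al2a measured 17.75, 18.9, 20.5 and 21.1 kb, so both treated libraries lay above both untreated ones. The domain 11.8 kb from Kat6b, an acetyltransferase gene, measured 16.9, 16.9, 15.6 and 14.5 kb, with both treated libraries below.

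Domains overlapped 13 of 28 genes of a list of core and naive pluripotency factors, against 666 of 21900 protein-coding genes (3.04%). With domains up to 50 kb away the counts were 18 of 28 and 9.33%. The lists were chosen with earlier results of these data known, and long genes can be overlapped more easily, so the counts are descriptive. Any region called in all 4 libraries was found at 27 of the 28 genes, against 53.1% of all protein-coding genes. Genes with a domain included Pou5f1, Sox2, Sall4, Esrrb, Klf2, Tfcp2l1, Tbx3, Zfp42, Tdgf1, Fgf4, Trim28 and Rif1.

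Sox2, a core partner of the Pou5f1 product OCT4, lay in a domain of 12.3, 12.2, 12.5 and 12.2 kb. The Pou5f1 domain measured 11.5, 11.4, 11.9 and 11.9 kb. Esrrb, an orphan nuclear receptor gene of the naive network, held 3 domains within its gene body, and the longest measured 17.6, 17.3, 17.7 and 17.2 kb. Treated and untreated values overlapped at Sox2 and Esrrb. Both treated values lay above both untreated ones at Pou5f1, with treated to untreated ratios of 1.03 in clone a and 1.04 in clone b. These ratios are of the domain alone. Peaks of all regions at the Pou5f1 gene or within 1 kb of it summed to 11545, 11418, 14071 and 13794 bp. Domains over Tdgf1, a Nodal co-receptor gene (12.9, 13.0, 12.1 and 11.9 kb), and Sall4, a zinc finger factor gene (11.2, 10.6, 11.05 and 10.4 kb), were called in 1 to 3 peaks per library. Both treated values lay below both untreated ones at Tdgf1, and the groups overlapped at Sall4.

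Nanog and Klf4, homeobox and zinc finger factor genes of the naive state, were not overlapped by a domain but had domains nearby. The domain that ends 55 bp from the Nanog gene measured 9.35, 9.13, 8.79 and 8.70 kb. A domain 44.6 kb from Klf4 measured 11.5, 11.6, 11.5 and 11.6 kb, in a single peak in 3 libraries. The Nanog values were lower in both treated libraries, and the Klf4 values of the groups overlapped. Further domains in the Nanog neighbourhood lay over the glucose transporter gene Slc2a3, 1 of them with 8.51, 7.66, 8.68 and 7.88 kb, and 30.5 kb from Dppa3 (5.59, 4.59, 4.98 and 3.90 kb). Tfcp2l1, a naive-state factor gene, was overlapped by 2 domains. Its longer one measured 9.99, 9.63, 10.04 and 9.84 kb with overlapping groups, and its shorter one 6.68, 6.67, 5.14 and 5.001 kb with both treated values below.

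Among signalling genes of the LIF, WNT and TGF-beta pathways, 6 of 20 were overlapped by a domain: Lifr and Il6st, which encode subunits of the LIF receptor, the ligand genes Lefty2, Nodal and Bmp4, and Tgif1, which encodes a repressor of TGF-beta signalling. The Lifr domain measured 7.52, 7.84, 7.61 and 7.83 kb. Tgif1 was overlapped by a domain of 9.63, 9.11, 9.68 and 9.34 kb, with 3 more domains within 50 kb. Lefty2, an antagonist of Nodal, had 8.57, 7.50, 4.72 and 6.06 kb, with both treated libraries below both untreated ones, and passed the rule because the change stayed under 1.5-fold in clone b.

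Of 18 feedback and ETS genes of the ERK pathway, 2 were overlapped by a domain, Etv5 and Spred2, and 6 had one within 50 kb. The shares of all protein-coding genes were 3.04% and 9.33%. The rule removed broad regions that changed after 4OHT, so the counts of every list leave these out. At Dusp4 a region of 5364 bp was left out in this way. Peaks of regions at Dusp4 or within 1 kb of it summed to 1867, 2760, 6141 and 6013 bp. Spred2, which encodes an inhibitor of RAS and RAF signalling, had 7.99, 7.23, 8.21 and 6.67 kb. All 18 were overlapped by some region called in every library. Of 24 immediate early and growth-response genes, 4 were overlapped: Junb, Ier2, Mycn and Mcl1. Mycn, a MYC-family gene, had 6.63, 6.42, 6.83 and 6.63 kb, and Mcl1, which encodes a survival factor, had 13.2, 12.9, 12.5 and 12.2 kb. Both treated values lay above both untreated ones at Mycn, by a margin lost in rounding, and below both at Mcl1.

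Genes of DNA and histone methylation were overlapped in 4 of 12 cases: Tet1, Tet2, Eed and Kdm2b. Tet2 held 4 domains in 32.3 kb, which together measured 27.85, 27.7, 28.0 and 28.9 kb. Of genes for acetylation, chromatin remodelling and Mediator, 2 of 20 were overlapped, Kat2b and Arid1a. Kat2b, an acetyltransferase gene, had 13.7, 12.5, 14.9 and 14.1 kb, and Arid1a, a remodelling subunit gene, 6.43, 6.54, 6.48 and 6.61 kb.

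Replication-dependent histone genes were overlapped in 7 of 15 cases, all in the clusters on chromosome 13. The domain over H1f2, H3c3, H2bc3 and H2ac4 measured 13.8, 13.6, 13.5 and 13.5 kb and overlapped 4 genes, the most of any domain along with those at Senp3 and at H2ac8. A domain 17.9 kb from H4bc24 measured 13.2, 12.9, 9.30 and 8.34 kb, with both treated values below. Among ribosome and translation genes 3 of 18 were overlapped, and among metabolic and cytoskeletal genes 4 of 18, with Actb, the cytoplasmic actin gene, having no domain. Domains also covered the nuclear long non-coding RNA genes Malat1 (12.3, 12.2, 13.3 and 12.1 kb) and Neat1 (11.4, 10.6, 11.5 and 10.8 kb).

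Marker lists of other cell types were read against the shares of all protein-coding genes, 3.04% overlapped and 9.33% within 50 kb. Among primitive endoderm genes 0 of 15 had a domain within 50 kb, as did 0 of 14 mesoderm, 0 of 10 neural and 0 of 14 differentiated-tissue genes. Of 12 formative and primed epiblast genes 1 was overlapped, Otx2 (5.69, 5.80, 5.26 and 5.52 kb), and of 12 fibroblast genes 1, Fn1 (9.46, 8.40, 8.25 and 6.63 kb), which encodes the matrix protein fibronectin. Regions of any width called in all 4 libraries, domains included, overlapped 8 of the 15 primitive endoderm, 8 of the 12 formative and primed epiblast and 4 of the 10 neural genes. They overlapped 2 of the 14 mesoderm, 2 of the 14 differentiated-tissue and 2 of the 12 fibroblast genes, against 53.1% of all protein-coding genes.

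**Figure D2:**
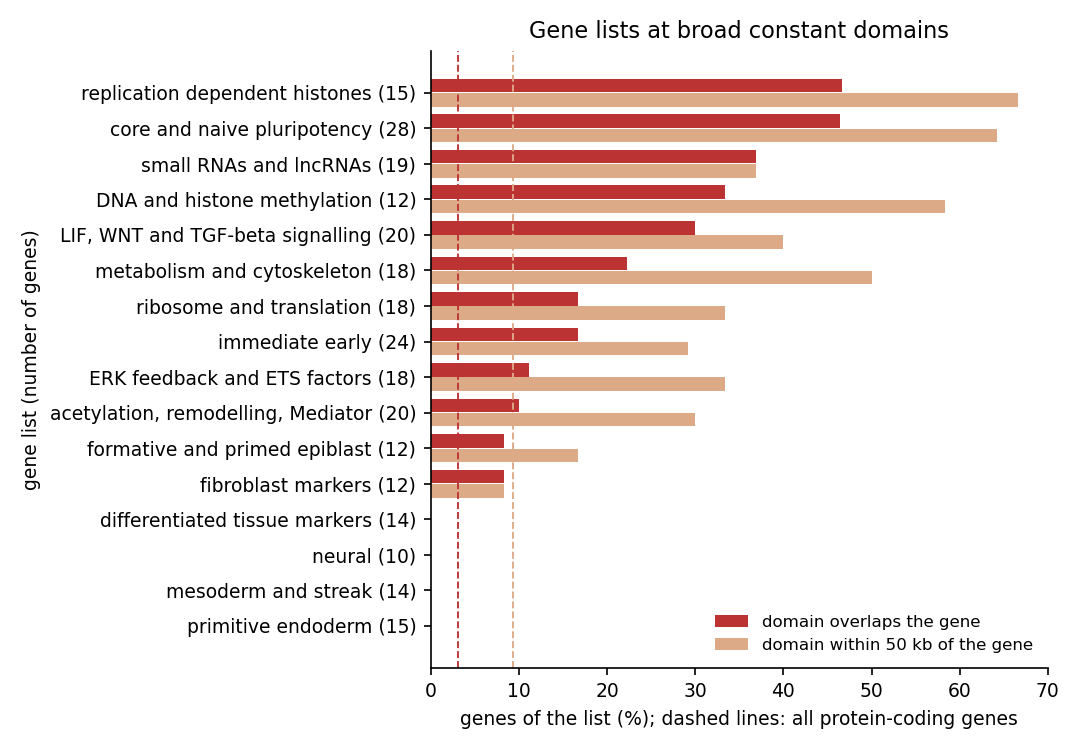
Share of the genes of each list (%, horizontal axis) overlapped by a domain (red) or with a domain within 50 kb (tan), with the number of genes in parentheses and dashed lines at 3.04% and 9.33% for all protein-coding genes. The pluripotency and histone lists stand highest, at 46.4% and 46.7% overlapped, and 4 lists of other lineages stand at 0. Broad regions left out as changed after 4OHT are not counted in any list.

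In terms of gene structure, the domains fell into similar numbers at gene ends, inside genes and outside them. Of the 1107, 357 (32.2%, 95% exact binomial interval 29.5% to 35.1%) had the end of a protein-coding gene inside or up to 1 kb away, 356 lay in a gene away from its ends and 394 outside genes away from their ends. The gene-end share was 34.9% for regions of 2 to 5 kb called in all 4 lists and 37.9% for all regions called in all 4. When an end had to lie inside the region, the shares were 28.2% of domains, 28.7% of the 2 to 5 kb regions and 21.1% of all such regions. The share of domains was then above that of all such regions but not above that of the 2 to 5 kb regions. A wider region can hold a gene end more easily, and median widths were 6376 bp in domains and 1263 bp in all such regions. Of the broad regions left out as shorter after 4OHT, 8.20% (5 of 61, interval 2.72% to 18.1%) lay at a gene end. Among those left out as longer, 23.1% (12 of 52, interval 12.5% to 36.8%) did. The intervals cover counting only, and regions near each other are not independent. The longest domains inside genes and away from ends were those at Etv5, Esrrb, Mras and Myo10, the last an unconventional myosin gene (15.3, 15.2, 15.3 and 15.2 kb). The 48 domains over 100 kb from any protein-coding gene included 1 that lay 1719.7 kb from Cntnap5a and measured 9.15, 8.997, 7.25 and 8.57 kb.

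For 207 domains that hold annotated starts of a single gene, the domain reached a median of 2.73 kb upstream and 3.79 kb into the transcribed side. In 117 of them (56.5%) the transcribed side was the longer one, against 66.0% of 1508 regions of 2 to 5 kb, which reached medians of 1.13 kb and 1.53 kb. Distances were taken from the most upstream annotated start in the region. Where a gene had several starts there, this choice lengthened the transcribed side, so nothing is read from the asymmetry.

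**Figure D3:**
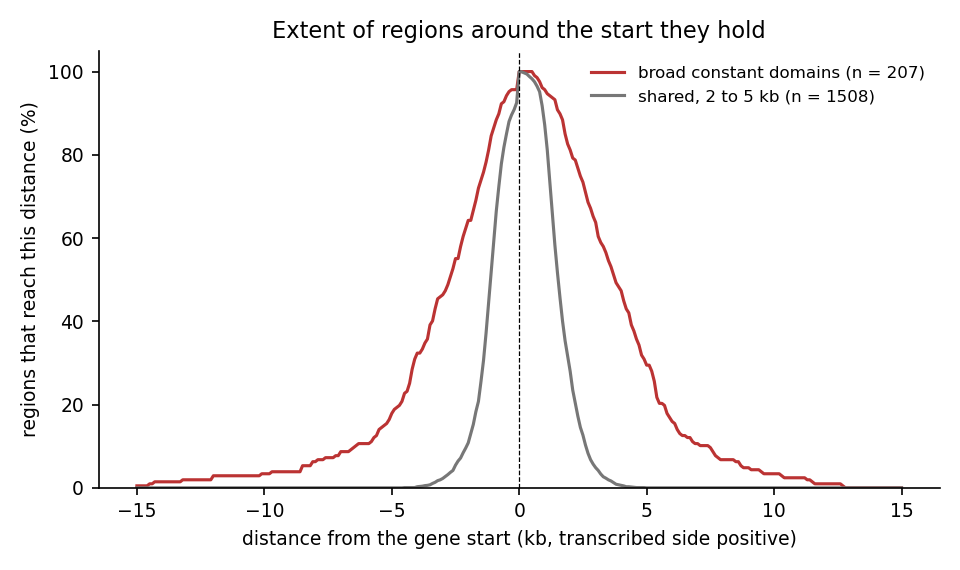
Share of regions (%, vertical axis) that extend to each distance (kb) from the gene start they hold, for 207 domains (red) and 1508 narrower regions of 2 to 5 kb (grey), with the transcribed side to the right. At the median the transcribed side is the longer one in both. Distances run from the most upstream annotated start in the region, a choice that favours the transcribed side.

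Promoter sequence was examined for the 277 protein-coding genes with a start inside a domain, out of 17492 coding genes with a promoter in the RefSeq table, which covers 20 chromosomes but not chromosome 18, over the 300 bases from 250 before to 50 after the start. Of these, 71.8% had a CpG observed-to-expected ratio over 0.6, against 83.1% of 2065 promoters in regions of 2 to 5 kb and 48.4% of all 17492. A single promoter was taken per gene. For domains and regions of 2 to 5 kb it was that of the most upstream start inside the region. For all 17492 genes it was that of the most upstream listed start, whether or not a region lay there. The sets therefore differ in how promoters were picked, here and for the motifs below. These shares were not tested against each other.

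Short motifs were searched on both strands of the same windows. The general promoter elements were TATAAA (the TATA box), GGGCGG (the GC box bound by SP and KLF proteins) and CCAAT (bound by NF-Y). TATAAA was found in 14.1% of promoters in domains, 6.92% of those in regions of 2 to 5 kb and 13.3% of all promoters. GGGCGG was found in 61.4%, 65.9% and 46.3% of them, and CCAAT in 37.5%, 34.4% and 39.2%.

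For factors of the pluripotency network, the POU octamer ATGCAAAT was found in 3.25% of promoters in domains (9 promoters), 1.21% of those in regions of 2 to 5 kb and 1.72% of all promoters. The SOX letters ACAAAG were found in 18.4%, 13.1% and 16.8%, the KLF letters GGGTGTGG in 2.89%, 3.29% and 3.66%, and the ESRRB letters TCAAGGTCA in 0.361%, 0.291% and 0.332%. ERK-responsive families were searched with the ETS letters CCGGAAGT, found in 5.78%, 11.6% and 5.28%, and the AP-1 letters TGACTCA, found in 3.25%, 3.73% and 4.56%. These shares are descriptions and were not tested.

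Of the remaining motifs, the E box CACGTG was found in 10.1%, 12.7% and 7.91%, and TGACGTCA, the element of CREB and ATF proteins, in 2.89%, 4.26% and 2.33%. The NRF1 letters GCGCATGC were found in 5.78%, 5.52% and 3.61%, and the YY1 letters AAGATGGCG in 4.33%, 4.75% and 1.92%. No motif contains another, though matches may share end bases. A match is a run of letters and not a measured binding site.

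The domains ranked high by the authors' own score in each list, a value with no stated scale that was used only within a list. The median percentile of a domain's top-scoring peak was 97.0, 96.9, 96.0 and 95.8 in the 4 lists, against 86.2 to 87.9 for regions of 2 to 5 kb and 71.9 to 72.6 for all regions called in all lists. Wider regions hold more peaks to choose the highest from. Of the 1107 domains, 964, 917, 862 and 852 were in the top 10% of the lists.

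Most domains were not a single unbroken peak. Only 42 had 1 peak in every library, 221 (19.96%) had a single peak of at least 5 kb in every library, and 211 had none of that length in any. Summed peak length reached 5 kb in every library in 563 domains and in no library in 73. Mean peaks per domain were 2.17 and 2.24 in untreated and treated clone a, and 2.64 in both libraries of clone b. Of all domain bases, 74.4% were covered in all 4 libraries, 2.46% in both untreated libraries only and 2.03% in both treated libraries only. The share of a domain covered in all 4 libraries had a median of 74.9% (quartiles 64.2% and 83.8%), was 90% or more in 121 domains and under 50% in 81.

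**Figure D4:**
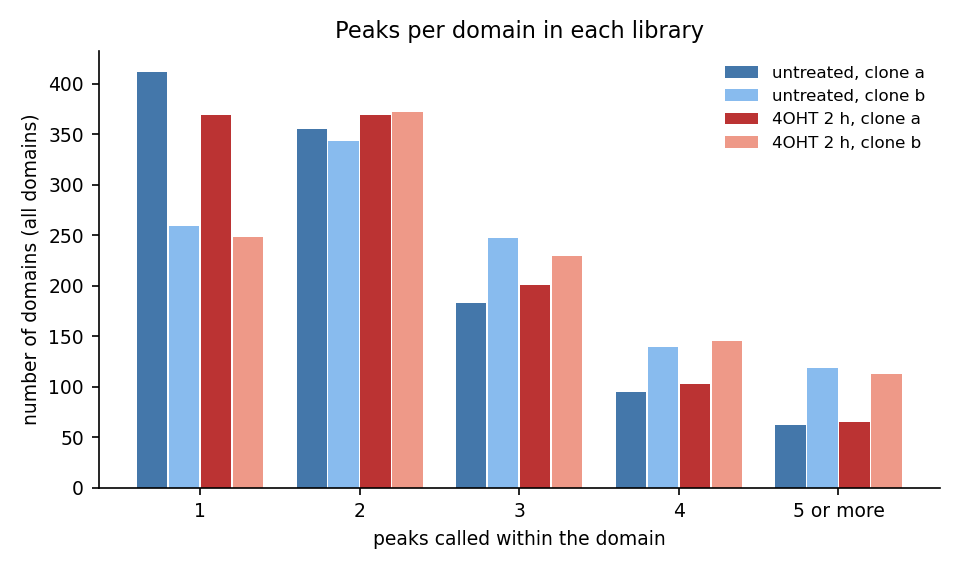
Number of the 1107 domains (vertical axis) with 1, 2, 3, 4 or 5 or more peaks (horizontal axis) in each library, one bar per library. Clone a has more domains with a single peak (412 and 369) than clone b (259 and 248), in untreated and treated cells alike.

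The rule used the 4OHT contrast, so the following describes how constant the kept domains were. The median log2 ratio of treated to untreated length was -0.01 in both clones. In clone a 531 domains were longer after 4OHT and 576 shorter, and in clone b 536 and 571. Both clones agreed on longer for 414 and on shorter for 454. In 433 domains (39.1%) the ratio stayed under 1.1-fold in both clones, and in 991 under 1.5-fold in both. The other 116 exceeded 1.5-fold in 1 clone, and 0 exceeded it in opposite directions.

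**Figure D5:**
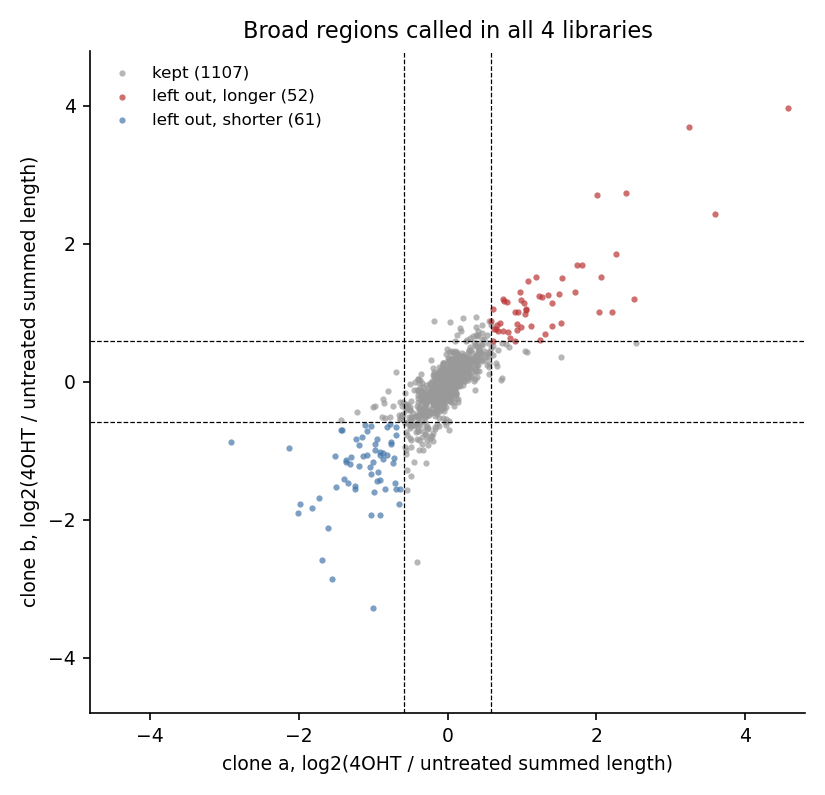
Log2 ratio of treated to untreated summed length in clone a (horizontal axis) and clone b (vertical axis) of the 1220 broad regions called in all 4 libraries, with dashed lines at 1.5-fold. Grey points are the 1107 kept domains, red the 52 left out as longer and blue the 61 left out as shorter; grey points beyond a dashed line passed 1.5-fold in 1 clone.

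Some members were far from constant in length. The domain over Bmp4, which encodes a differentiation and self-renewal signal, measured 0.897, 3.16, 5.197 and 4.69 kb, and was kept because clone b stayed below 1.5-fold. That over Pecam1, an adhesion gene, measured 5.91, 5.66, 4.45 and 0.924 kb. Both treated libraries lay above both untreated ones at Bmp4 and below at Pecam1. Domains at Fermt2 (2.64, 4.61, 5.55 and 6.24 kb), at Etl4 (3.58, 2.68, 5.25 and 4.94 kb) and near Map4k3 (2.24, 5.03, 6.42 and 6.44 kb) were longer after 4OHT in both clones. Domains at Spats1 (8.70, 8.41, 5.95 and 2.84 kb), Ube2h (5.79, 4.42, 4.10 and 1.71 kb) and near Spp2 (7.88, 9.16, 2.93 and 6.22 kb) were shorter in both. The members nearest the 1.5-fold limit were at Cog5 (5.36, 4.92, 3.60 and 2.55 kb), near Klhl25 and at Rmdn2, and just beyond it lay regions 17.4 kb from Myc (3.66, 4.84, 6.87 and 7.28 kb), at Sh3gl2 and near Mtcl1. Regions well beyond it were those at Dner (0.210, 0.351, 4.98 and 5.48 kb), S100a3 and Camk1d, longer after 4OHT, and at Vwf (5.07, 4.40, 2.52 and 0.455 kb) and near Fxyd6, shorter.

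Of all 30131 regions called in all 4 lists, limma on log2(bp + 500) called 0 for treatment at an adjusted p of 0.05 (background 0.0%). In that fit 5294 regions (17.6%) had an unadjusted p under 0.05, and 244 of those were domains (22.0% of domains). With clone as a term, which pairs each clone with itself, 1485 were called (4.93%). Of the 1107 domains 82 were among them, 37 longer and 45 shorter. The treated and untreated values did not overlap in 265 domains (23.9%) that were longer after 4OHT and 316 (28.5%) that were shorter, against backgrounds of 27.3% and 21.5% of all regions called in all lists. Changes of 1.5-fold or more in both clones were found in 6.31% (longer) and 7.22% (shorter) of those regions and, by the rule, in 0 domains. Nothing is read from these counts, since the domains were selected on this contrast.

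The clones, which the rule did not compare, differed in the domains by small amounts. Summed over all domains, clone a had 7.39 and 7.30 Mb and clone b 7.06 and 6.93 Mb in untreated and treated cells, so both values of clone b lay below both of clone a. The means were 7.34 ± 0.0601 Mb and 6.999 ± 0.0915 Mb (SD, n = 2), a difference of -0.345 Mb, with an exact two-sided permutation p of 0.333, the smallest that 2 libraries against 2 can give. Clone b's lists as a whole held more and shorter peaks (medians 503 and 511 bp) than clone a's (531 and 539 bp). Scaled to each library's covered length, clone a had 7.16 and 7.29 Mb and clone b 7.21 and 7.03 Mb, so the clones overlapped and the difference was -0.102 Mb. How far calling in the clones contributed was not tested.

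By domain, limma found 0 that differed between the clones at an adjusted p of 0.05 (background 0.0% of 30131 regions, lowest adjusted p 0.514). In that fit 107 domains (9.67%) and 2365 regions (7.85%) had an unadjusted p under 0.05. With treatment as a term in limma the count was also 0 (0.0%), with a lowest adjusted p of 0.165. There 313 domains (28.3%) and 5395 regions (17.9%) had an unadjusted p under 0.05. The median log2 difference of clone b from clone a was -0.06 in domains and -0.03 in all regions, and with lengths scaled to covered length -0.011 and 0.0043. Both values of clone b lay below both of clone a in 347 domains (31.3%, background 22.4%) and above in 102 (9.21%, background 15.1%). With scaled lengths, an alternative chosen after seeing the data, these counts were 213 (19.2%, background 18.0%) and 183 (16.5%, background 19.1%). Clone b, summed over the treatments, had more peaks in 600 domains and fewer in 296.

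Differences of 1.5-fold or more under both treatments were found in 15 domains, 9 shorter in clone b (0.813%, background 4.44%) and 6 longer (0.542%, background 2.91%). The background regions were narrower, with a median width of 1263 bp against 6376 bp in domains. A short region reaches 1.5-fold by fewer bases, so nothing is read from the lower shares in domains. The examples here were picked after their values were seen. The domain over Paqr8, a progestin receptor family gene, measured 5.199, 2.226, 4.604 and 1.414 kb, and had the smallest share covered in all 4 libraries (11.9%). The domain 19.5 kb from Cdkn1a, which encodes the cell-cycle inhibitor p21, measured 7.18, 3.06, 6.84 and 3.41 kb. In the other direction, the domain at Zfp975 measured 3.02, 5.98, 3.23 and 6.15 kb. In limma the log2 differences (clone b minus clone a) were -1.24 (SE 0.208) for Paqr8, -1.01 (SE 0.0832) for Cdkn1a and 0.86 (SE 0.0736) for Zfp975, each with an adjusted p of 0.514.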

How the data were processed

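H3K27ac peak lists of 2 untreated and 2 4OHT libraries were used. Inputs (4 libraries) were left aside and not analysed here. The submitters' processing notes name Bowtie2, MACS2, bedtools and mm10. Tool versions, calling thresholds and the role of the inputs were not given in the sources used here. The authors called peaks separately in every library, since each list holds those of 1 library. The score is a deposited value of the authors with no stated scale, used to rank peaks within a list.

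Peaks overlapping by 1 bp or more were merged, and a region counted as called in a library with any peak in it. Summed peak length per region was compared with limma 3.58.1 (R 4.3.3) on log2(bp + 500) over the 30131 regions called in all 4 lists, two-sided, with Benjamini-Hochberg adjustment at 0.05 and no other term. Such a log2 change understates changes of short lengths. The fit was tested on simulated data with equal spread in every region and no clone effect. That test does not cover unequal spread between regions or paired clones. Nothing in the labels says whether the clones' libraries came from separate cultures, so p-values measure the spread between these libraries. Python 3.11.15 with pandas 2.3.3 was used for the rest.

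Genes came from a RefSeq table of GRCm38.p6, which shares its coordinates with mm10. That table gives no strand, so gene ends were used, and strand and starts came from the RefSeq promoter table. The members, gene lists and motifs were chosen with earlier results of these data known. Named domains were the 12 longest, up to 4 per gene list, the 5 largest and 5 smallest changes, the 3 nearest either side of each limit, the 5 left-out regions that differed most each way, and those of Pou5f1, Sox2, Nanog, Esrrb, Klf4, Mycn, Actb and the Mir290 cluster. Clone letters pair the treatments. As a check, deviations of same-clone libraries from their group means correlated at 0.497 over all regions and 0.587 over the domains, and a fit with clone as a block was run. Alternatives covered the score filter, merging distance, coverage, width and change limits, pseudocount, scaling, a length filter, and leaving out each library. Some domains that this rule names are not reported here.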

Additional observations from a re-analysis of the deposited data

How the results depend on the processing

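The number of domains, 1107, stayed within 1.5 times under the upper 50% of each list by score (969), 50% coverage (1058), a tighter change limit (970) or none (1220), and a limit applied to either clone, chosen after seeing the data (991). Leaving out each library gave 1028 to 1070. There the regions and their widths still came from all 4 lists, and the change limit used 1 clone. These counts therefore do not show how many domains would form without a library. The number of domains was 2580 when peaks within 1000 bp were merged, 1876 and 268 with width limits of 4 and 8 kb, 563 with 5 kb of summed length in every library, and 221 with a single peak of 5 kb in every library. Pluripotency genes overlapped by a domain numbered 7 to 22 of 28 over these rules, while 153 to 1744 of 21900 protein-coding genes were, both ranges chosen after seeing the data.

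For treatment, limma called 0 regions and 0 domains with pseudocounts of 100 or 2000 bp, with the upper 50% by score and without any 1 library. It called 41 regions when lengths were scaled to covered length, and 1485 regions and 82 of 1107 domains with clone as a replicate block. Among the 14239 regions averaging 1000 bp or more, which included all 1107 domains, it called 232 regions and 2 domains. The number of domains and regions that differed between clones was 0 in every alternative run. The clone difference in summed domain length, -0.345 Mb, was -0.102 Mb when scaled to covered length and -1.04 Mb with merging within 1000 bp. Domains in which both values of clone b lay below both of clone a numbered 347, and 213 with scaled lengths, and those above 102 and 183, chosen after seeing the data. The difference in gene-end share between domains and all shared regions, -5.65 percentage points, was 7.05 when ends had to lie inside the region and -2.69 against regions of 2 to 5 kb. The cause was not tested. The unknown read depth limits every length given.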

Other observations

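Some domains lay close together, a share that was not computed for narrower regions. With gaps of up to 12.5 kb, 272 domains (24.6%) fell into 124 clusters of 2 or more, of which 20 held 3 or more and the largest 4. The clusters of 4 lay at Mybl2 (29.3, 28.8, 29.6 and 29.2 kb of summed peak length), Macf1, Tet2 and Zbtb45 to Trim28. Mybl2 encodes a MYB-family cell-cycle factor and Macf1 a cytoskeletal crosslinker. The Macf1 cluster measured 32.2, 28.4, 31.2 and 24.6 kb, with both values of clone a above both of clone b. Clusters of 3 included Sall1, a zinc finger factor gene (24.8, 24.3, 25.3 and 23.4 kb), Esrrb (31.5, 29.3, 32.2 and 28.8 kb) and Mcl1 (28.3, 26.9, 27.2 and 25.7 kb). By chromosome, domains were 1.20% of the regions called in all 4 lists on the X (9 domains) and 2.82% to 4.62% on the autosomes.

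Regions that appeared or disappeared after 4OHT were found near many domains. A region called in both treated and no untreated library lay within 20 kb of 305 domains (27.6%), and the opposite pattern within 20 kb of 274 (24.8%). For regions of 2 to 5 kb the shares were 19.8% and 20.2%. Domains also had more neighbours of any kind, with a median of 3 other regions called in all lists within 20 kb, against 2. Jam2, which encodes a junctional adhesion molecule, had 6 appearing regions within 20 kb of a domain of 14.1, 14.3, 14.1 and 14.2 kb. Cbx7, a Polycomb subunit gene, also had 6. A domain near Arc, an immediate early gene, had 5, and its own lengths were 10.1, 8.82, 11.5 and 10.3 kb. The Lefty2 domain had 6 disappearing regions, and the domain 17.9 kb from H4bc24 had 8.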
